A study of Mus musculus with 6 samples.

Results

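The regions described here are tight clusters within the list of 5-hydroxymethylcytosine (5hmC) regions that the authors deposited as specific to wildtype cerebellum. They were chosen by their list and the positions of their edges: successive wildtype-specific regions with fewer than 10000 bp between their edges were chained, and chains of 3 or more regions were kept. The rule found 465 of 8658 wildtype-specific regions, in 141 chains. A chain at the start of the chromosome 9 assembly and a chain on chromosome 2, together 19 regions, may lie in high-copy repeats and were treated apart. The remaining 446 regions form the 139 clusters below, out of 12969 regions in both deposited lists.

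The lists compare the cerebella of 3 wildtype littermates (wildtype) with those of 3 animals titled rCGG, whose genotype label is FXTAS. All 6 mice were of the C57BL/6 strain and 16 weeks old. FXTAS is fragile X-associated tremor/ataxia syndrome, a late-onset movement disorder linked to an expanded CGG repeat of the FMR1 gene, and the comparison asks where 5hmC differs in animals that model it. The labels do not give the construct of the rCGG animals, the promoter that drives it, the cells that carry it, or the sex of any animal. Whole cerebella were homogenised, so every cell type of the tissue contributed DNA, and lists of regions hold no marker expression with which the tissue label could be checked.

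5hmC is made from 5-methylcytosine by the TET enzymes, which oxidise the methyl group. It is far more abundant in neurons than in most other cells, and in brain it lies mainly over the bodies of transcribed genes and at enhancers. A list of regions does not tell whether neighbouring regions are pieces of 1 longer domain or separate sites.

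Each region carries the authors' score, given without a header or a scale. No region of either list was below 50.00, and the score is used here only to rank regions. Neither read counts nor values for single animals entered, so the depth behind a region is unknown and the spread between animals cannot be seen. List, position, score and width all come from the same contrast as the rule, so what follows is description without tests. Intervals are 95% exact binomial (Clopper-Pearson) intervals. They cover counting error only and treat neighbouring regions as independent, which makes them too narrow. All coordinates are mm9, counted from 1. No annotation or sequence of mm9 was used here, so genes, exons and bases under the clusters are not analysed here.

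Clusters held 446 of the 8658 wildtype-specific regions, 5.15% of that list (interval 4.70% to 5.64%). They held 6.35% of the base pairs the list covers, 514562 bp in all. A further 1468 regions (17.0%) lay in pairs, which the rule leaves out, and 6725 (77.7%) were alone. Under the same rule the rCGG-specific list gave 37 chained regions of 4311, 0.858% of it (0.605% to 1.18%), in 12 chains. The lists differ in size, and a list with more regions has shorter gaps: the median gap between successive regions was 90.9 kb in the wildtype-specific list and 233 kb in the rCGG-specific list. The part of this difference in density in the unequal clustering was not tested.

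**Figure D1:**
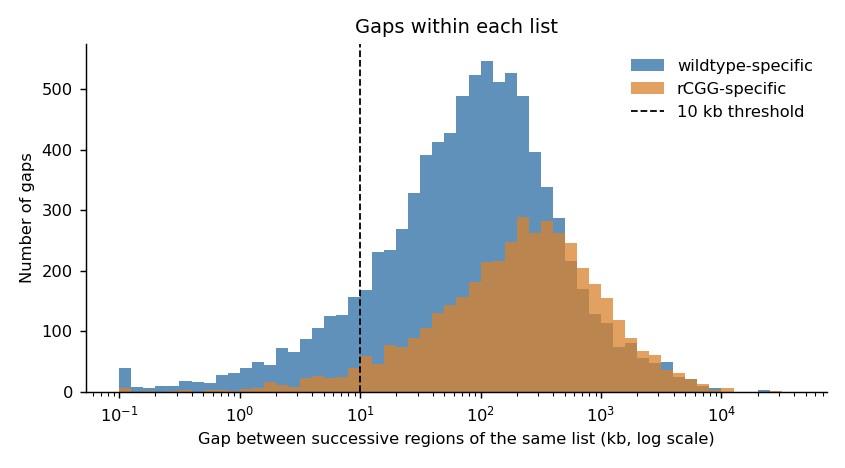
Histogram of the gaps between successive regions of the same list (x, kb, log scale; gaps under 0.1 kb are drawn in the first bar; y, number of gaps) for the wildtype-specific list (blue) and the rCGG-specific list (orange), with the 10 kb threshold dashed. The threshold lies on the left flank of both distributions, with no dip beside it, and the wildtype-specific median gap is 90.9 kb.

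The threshold falls in a continuous range of gaps. The widest gaps inside clusters were 9964 bp on chromosome 1, between a region ending at 95036822 and one starting at 95046787, and 9935 bp on chromosome 16, between 18617501 and 18627437. The next were 9879 bp on chromosome 12, 9849 bp on chromosome 2 and 9814 bp on chromosome 1. Just outside, a gap of 10001 bp on chromosome 13 separated the 6-region cluster that ends at 55577132 from a pair that starts at 55587134. The chromosome 16 cluster just named was itself 10003 bp from a single region ending at 18604860. Gaps of 10055 bp on chromosome 12, 10137 bp on chromosome 4 and 10225 bp on chromosome 2 left a pair and a single region unjoined in each case. In all, 20 gaps inside clusters lay less than 1000 bp under the threshold, and 15 gaps less than 1000 bp over it would have made or extended a cluster.

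Most clusters were small. Of the 139, 119 held 3 regions, 13 held 4, 5 held 5 and 2 held 6. Their spans ran from 3277 bp to 33073 bp with a median of 12441 bp, and 5 were under 5 kb while 11 were over 20 kb. The called regions covered a median of 27.8% of the span (7.52% to 84.0%). In 21 clusters they covered over 50% of it and in 33 under 20%. Clusters therefore range from nearly continuous stretches to a few regions far apart.

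The gaps inside clusters were spread over the whole allowed range. Among 307 gaps the lowest was 1 bp, the median 3741 bp and the highest 9964 bp. Gaps under 300 bp, the upper end of the library fragments selected, numbered 18, and gaps under 1000 bp numbered 53. In the 734 pairs the median gap was 3973 bp, and 51 gaps were under 300 bp (6.95%, against 5.86% in clusters). The rule holds both sets to gaps under 10000 bp, so nothing is read from their likeness. In 46 clusters at least 1 gap was under 1000 bp, and in 48 clusters all gaps were under 5000 bp. After regions less than 1000 bp apart had been merged, a step chosen after seeing the data, 102 clusters remained.

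In the most covered clusters the regions filled most of the span. On chromosome 7, the cluster at 30074197-30081683 was covered to 84.0% by 3 regions of 2770, 2596 and 925 bp, with gaps of 995 and 201 bp and scores of 113, 61.3 and 51.3. On chromosome 10, the cluster at 126764014-126771194 was covered to 77.5% by 4 regions, and its widest region, of 2010 bp, had the best score of the 4, 197. On chromosome 15, the cluster at 84007594-84011780 was covered to 77.5% within only 4187 bp. Its 3 regions had 663, 1662 and 918 bp and scores of 56.3, 130 and 90.0, with the best score in the middle. A second chromosome 15 cluster, at 77591274-77606846, was made of broad regions throughout, of 3862, 3027 and 3511 bp, with scores of 100, 61.6 and 129. They covered 66.8% of the span, with gaps of 157 and 5016 bp. In covered share, chromosome 11 at 97895236-97901566 stood between these 2 chromosome 15 clusters, with 68.4% covered and a best score of 88.4.

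At the other end were wide, open clusters. On chromosome 3, 4 regions were strung over 33073 bp at 88940864-88973936, the longest span, with gaps of 9269, 9054 and 8718 bp. Their scores were 64.8, 92.4, 62.6 and 113 in order along the chromosome. On chromosome 7, the cluster at 53034986-53066563 spread 5 regions over 31578 bp, with scores between 52.9 and 99.1 and a widest region of 3559 bp at its far end. The clusters on chromosome 11 at 102295975-102322430 and on chromosome 19 at 5804475-5828413 each held 3 regions with no short gap. Both gaps of the chromosome 11 cluster, 9790 and 9669 bp, were close to the threshold, and so were the 9709 and 8843 bp of the chromosome 19 cluster. None of these 4 clusters would be one with gaps under 5000 bp.

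The clusters with most regions were on chromosomes 4 and 13. The chromosome 4 cluster at 46498888-46520138 had 6 regions over 21251 bp. Their scores were, in order along the chromosome, 57.7, 117, 67.9, 53.8, 59.1 and 91.0, and their widths 352, 573, 670, 660, 1638 and 1590 bp. The best-scored of these 6 was among the narrower ones. The chromosome 13 cluster at 55559427-55577132 had 6 regions over 17706 bp, with scores of 66.8, 52.9, 52.7, 173, 68.9 and 72.5. Its best-scored region had 980 bp, while its widest, of 2330 bp, had the lowest score of the 6.

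Clusters of 5 regions lay on chromosomes 1, 7, 9, 12 and 18. Those on chromosomes 9, 12 and 18 had no region past a score of 80. On chromosome 9, at 64938220-64951003, the 5 scores ran from 55.9 to 79.5, and all widths lay between 448 and 743 bp. On chromosome 12, at 110772881-110789689, the scores ran from 54.0 to 66.1, around the list's median of 62.4. On chromosome 18, at 34921746-34941321, they ran from 50.3 to 69.4, with a median of 52.2. On chromosome 1, at 159002920-159017598, the first region reached 115 and the others lay between 52.3 and 77.7. A cluster with many regions was thus not always one with a high score. Of the clusters with 4 regions, that on chromosome 17 at 25988027-25998085 had scores of 56.3, 59.0, 144 and 83.5.

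**Figure D2:**
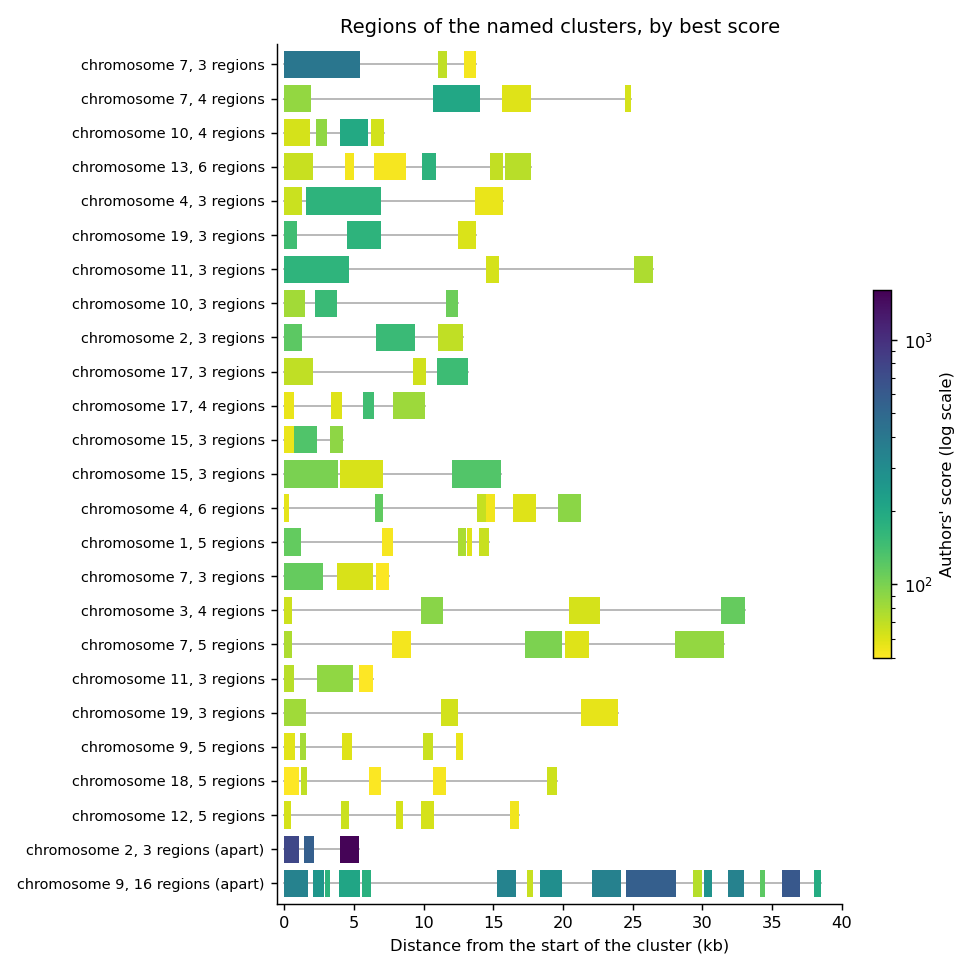
Maps of the 23 named clusters and, at the bottom, of the 2 chains treated apart (x, distance from the start of the cluster in kb; each box is a region drawn to scale, coloured by the authors' score on a log scale). Most rows hold 1 darker, better-scored box among pale ones. The chromosome 2 chain treated apart is dark throughout, and that on chromosome 9 mixes pale and darker boxes (scores from 66.9 to 627).

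High scores were held by a minority of the clustered regions. A score of at least 100 was reached by 50 of the 446 clustered regions, 11.2% (interval 8.44% to 14.5%), where 6.16% of all wildtype-specific regions reached it. The share was 6.81% in pairs and 5.44% among regions that were alone. These 50 regions lay in 40 clusters, of which 30 held exactly 1 of them and 10 held 2 or more. Such scores are infrequent and most clusters hold only 3 regions, so 1 per cluster is the likeliest number. Nothing is read from it. A total of 54 clusters had every score under 75. The median hardly differed between the sets: 63.7 in clusters (quartiles 55.8 and 76.1), 63.8 in pairs and 62.0 for regions that were alone. The sets thus differed in the upper tail of the scores and little in the middle.

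The best-scored cluster was on chromosome 7 at 52300781-52314530. Its first region, of 5438 bp, had a score of 412, and the regions that followed it, of 682 and 879 bp, had 69.9 and 53.1. A second chromosome 7 cluster, at 51596317-51621184, held 4 regions with scores of 87.8, 204, 59.5 and 62.3. Here too the best-scored region, of 3392 bp, was the widest. Chromosome 4 at 134110489-134126171 had a 5361 bp region with a score of 171, between regions with 65.7 and 55.9. Chromosome 11 at 102295975-102322430, one of the open clusters above, reached 169 in its first region, of 4659 bp. On chromosome 17, at 24626450-24639616, scores of 69.5 and 64.5 were followed by 150 in the last region.

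In a few clusters more than 1 region scored high. The chromosome 19 cluster at 7008493-7022258 had scores of 145, 171 and 61.0, and its median of 145 was the highest of the 139 clusters. On chromosome 2, the cluster at 30639404-30652196 had 120, 152 and 69.6. On chromosome 10, the cluster at 128345199-128357633 had 81.3, 153 and 109, so that even its lowest score was above the upper quartile of the clustered regions. Clusters with at least 2 regions past 100 numbered 10. Chaining only the regions with a score of at least 75 left 3 clusters: the chromosome 10 cluster just named, 1 on chromosome 12 that starts at 109565169 (scores 138, 81.8 and 96.4) and 1 on chromosome 2 that starts at 118498280 (84.6, 103 and 125).

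Clustered regions were wider than the rest of their list. Their median width was 867 bp (quartiles 650 and 1412 bp) against 784 bp in pairs, 665 bp for regions that were alone and 691 bp over the whole list. Widths over 2000 bp were found for 51 clustered regions, 11.4% (8.63% to 14.8%), where 6.92% of all wildtype-specific regions were that wide. In pairs the share was 8.92% and among regions that were alone 6.17%. Narrow regions under 500 bp made up 8.07% of clustered regions and 17.1% of those alone. The 51 broad regions lay in 40 clusters, 9 of which held at least 2. The rule measures gaps from edge to edge, so a wider region has shorter gaps and is more readily chained. The part of this in the widths was not tested.

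Regions over 2000 bp more often had a score of at least 100. Over all widths, score and width were only loosely related (Spearman rho 0.189 in clusters, 0.151 in pairs and 0.0835 for regions alone). Of the 51 clustered regions over 2000 bp, 19 reached a score of 100 (37.3%, interval 24.1% to 51.9%), against 31 of the 395 narrower ones (7.85%, 5.39% to 11.0%). Among regions that were alone the corresponding shares were 16.1% of 415 and 4.74% of 6310, and in pairs 18.3% of 131 and 5.68% of 1337. The clustered share was the highest of the 3 sets in both width classes, and in both its interval overlaps that of the pairs. The best-scored region was also the widest in 59 of 139 clusters (42.4%). In the 119 clusters of 3 regions, the best score was first in 41, in the middle in 39 and last in 39, so no place along the cluster held the best score more often than counting error allows.

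**Figure D3:**
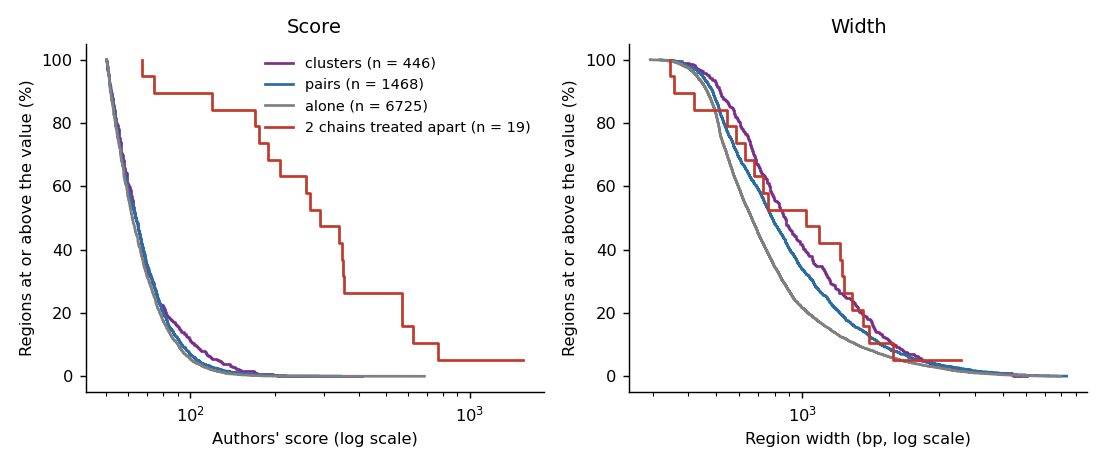
Share of regions (y, percent) at or above a score (left) or a width (right, bp), both on log axes, for regions in clusters, in pairs, alone and in the 2 chains treated apart. Curves of the clusters, pairs and single regions run together for the score up to its upper tail (medians 63.7, 63.8 and 62.0), and separate for the width (867, 784 and 665 bp).

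The 2 chains treated apart differed from all the clusters in score. The chromosome 2 chain at 98502246-98507625 held 3 regions of 1028, 728 and 1376 bp with scores of 770, 570 and 1546. The chromosome 9 chain at 2999879-3038406 held 16 regions over 38528 bp with scores from 66.9 to 627 and a median of 264. Its gaps had a smallest value of 90 bp, and a single gap of 9017 bp split it into a block of 5 and a block of 11 regions. Of the 19 regions, 16 had a score of at least 150, against 9 of the 446 clustered regions. Both chains were also isolated: no other wildtype-specific and no rCGG-specific region lay within 500 kb of either. As background, both stretches are commonly masked in mouse sequencing data because reads from repeats pile up there. The part of repeats in these scores was not tested.

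The clustered share varied between chromosomes. Chromosome 7 held 19 of the 139 clusters and 60 of its 666 wildtype-specific regions were clustered, 9.01% (6.94% to 11.4%). Chromosome 19 had the same share, 9.02% (5.80% to 13.2%), from 23 of 255 regions in 7 clusters. Chromosomes 17 and 10 followed with 6.30% and 6.24%. The lowest autosomal shares were on chromosome 16, with 6 of 267 regions (2.25%, 0.829% to 4.83%), and chromosome 6, with 12 of 451 (2.66%, 1.38% to 4.60%). The intervals of chromosomes 7 and 19 lie above the list's 5.15% and those of chromosomes 16 and 6 below it, while the interval of every other autosome includes it. Clustered regions come in blocks of at least 3, such as the 2 clusters of chromosome 16 and the 4 of chromosome 6. The intervals ignore this and the number of autosomes looked at. Whether the shares differ between chromosomes was not tested.

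No cluster lay on the X chromosome, where 0 of 55 wildtype-specific regions were chained, which allows a share of up to 5.45% by the limit of 3 counts and 6.49% by the exact interval. At 0.345 wildtype-specific regions per Mb, X was also the chromosome with the sparsest list. Of the 37 chained rCGG-specific regions, 6 lay on X, in a pair of chains at 65948186-65953724 and 65965220-65969077. Across the 19 autosomes the clustered share was higher where wildtype-specific regions were denser (Pearson r = 0.628, Spearman rho = 0.697, given as a description). Each point is a chromosome of the same 2 lists, and both measures are computed from the same regions, so a denser chromosome has shorter gaps by construction.

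**Figure D4:**
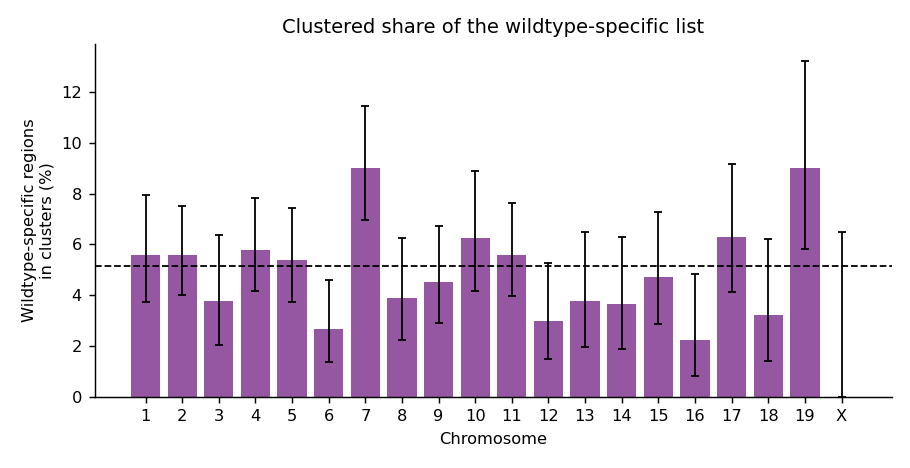
Share of wildtype-specific regions that lie in clusters (bars, percent) on each chromosome, with 95% exact binomial intervals, and the share over the whole list, 5.15%, dashed. Chromosomes 7 and 19 stand at 9.01% and 9.02%, chromosome 16 at 2.25%, and X has no bar because 0 of its 55 regions are clustered.

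Some clusters lay near each other, though the median distance to the nearest other cluster was 1552 kb. Pairs and single regions were not counted in the same way, and the density of the list was not taken into account. The grouping is therefore not shown to be particular to clusters. Of the 139, 54 (38.8%) had another cluster within 1 Mb, and these formed 19 groups with 177 regions. Chromosome 7 held 5 of these groups and 15 of the 54 clusters. The longest group, on chromosome 7 at 50728074-53066563, had 5 clusters with 18 regions among 46 wildtype-specific regions in all. It includes the best-scored cluster and 2 of the other clusters described above, and 3 rCGG-specific regions lay inside it, between clusters. On chromosome 10, a group at 126492252-128357633 had 5 clusters with 16 of 37 wildtype-specific regions and also 3 rCGG-specific ones.

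Of the 19 groups, 12 held no rCGG-specific region. These 12 spanned from 157 kb to 1372 kb, and the autosomes held only 1.80 rCGG-specific regions per Mb on average. The part of their length in this count was not tested. On chromosome 17, 4 clusters with 13 regions lay at 24626450-25998085, and the nearest rCGG-specific region was 364 kb away. On chromosome 19, 4 clusters with 14 of 22 wildtype-specific regions lay at 5730089-7022258, with the nearest rCGG-specific region at 534 kb. The 2 closest pairs of clusters were in these groups, 54.3 kb apart on chromosome 17 and 52.0 kb apart on chromosome 19. Of the 139 clusters, 27 (19.4%) started in 1 of the 62 windows of 1 Mb that held at least 10 wildtype-specific and 0 rCGG-specific regions. Those windows held 9.79% of all wildtype-specific regions. The shares count different things, and a cluster itself supplies at least 3 of the regions such a window needs, so they are not compared.

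The rule picks places where wildtype-specific regions are dense, so their further neighbours are given as description only. Within 500 kb on either side a cluster had a median of 9 other wildtype-specific regions (quartiles 6 and 14, highest 24). The medians were 8 for regions in pairs (quartiles 5 and 12) and 6 for those alone (3 and 10), so the ranges overlap widely. For rCGG-specific regions the medians were 1, 2 and 2. A cluster of high rank could still be poor in neighbours: the 5-region clusters on chromosomes 1 and 18 each had 3 others. The chromosome 7 cluster at 53034986-53066563 had 23.

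No rCGG-specific region lay inside the span of any cluster. The count was 0 of 139, which allows a share of up to 2.16% by the limit of 3 counts and 2.62% by the exact interval, and in pairs it was 2 of 734. The gaps inside clusters add up to 1.25 Mb, and the autosomes held 1.80 rCGG-specific regions per Mb on average, so a stretch this long at that density would hold 2.25. That number uses the autosomal mean, not the density around the clusters, and leaves out the width of the regions. Whether the count of 0 departs from it was not tested. Within 10 kb of the span, 3 clusters (2.16%, 0.447% to 6.18%) had an rCGG-specific region, against 22 of 734 pairs (interval 1.89% to 4.50%).

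Those 3 meeting points were on chromosomes 1, 2 and 14. On chromosome 2, the cluster at 132073507-132091396, with a best score of 83.0, was 5234 bp from an rCGG-specific region at 132096631-132098945 of 2315 bp and score 74.8. On chromosome 14, the cluster at 103736078-103743675 (best score 61.3) was 5941 bp from a region at 103749617-103750383 with a score of 57.3. On chromosome 1, the cluster at 136451745-136461737 (best score 108) was 7304 bp from a region at 136469042-136470126, whose score of 50.7 was close to the lowest of its list. In each case the rCGG-specific region lay beyond the end of the cluster with the higher coordinate.

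Counted by region, so that span plays no part, 4 of 446 clustered regions had an rCGG-specific region within 10 kb, 0.897% (0.245% to 2.28%). The share was 2.25% in pairs (1.55% to 3.14%) and 4.27% among regions that were alone (3.80% to 4.78%). Chained regions have part of their 10 kb surroundings taken up by the chain itself. Within 100 kb the shares were 27.4%, 30.4% and 35.0%. The median distance to the nearest rCGG-specific region was 253 kb for clustered regions, 192 kb for those in pairs and 166 kb for those alone. Median distances thus grew from single regions to clusters, but the quartiles overlap widely. They were 87.6 and 496 kb in clusters, 77.7 and 422 kb in pairs, and 64.9 and 371 kb for regions alone. The regions of a cluster share their neighbour, so the 446 distances stand for 139 places. Counted by cluster, 39 of 139 spans (28.1%, 20.8% to 36.3%) had an rCGG-specific region within 100 kb. That interval includes the 35.0% of regions that were alone. Whether the distances differ was not tested.

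**Figure D5:**
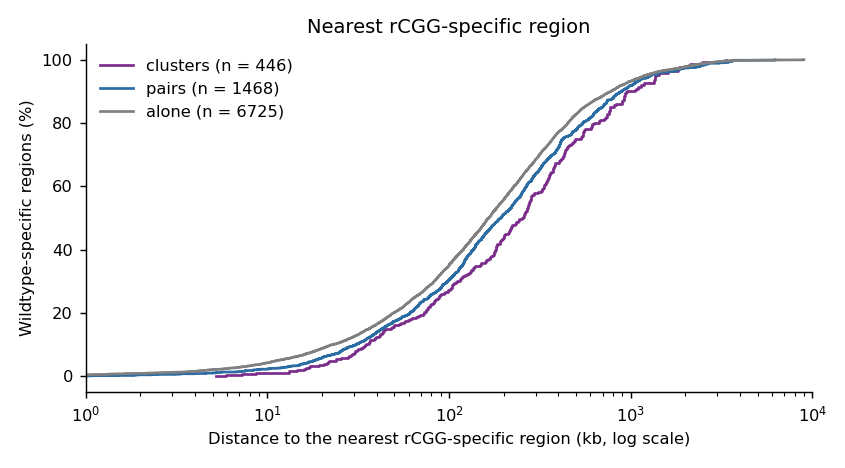
Cumulative share of wildtype-specific regions (y, percent) by distance to the nearest rCGG-specific region (x, kb, log scale) for regions in clusters, in pairs and alone. The curve of the clusters runs to the right of the others, with 27.4% of its regions within 100 kb against 35.0% of those alone.

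The 12 rCGG-specific chains were similar to the clusters in number of regions, span and covered share. Of these, 11 held 3 regions and 1 held 4, with a median span of 10.7 kb and a median of 33.3% of the span covered. Their best score had a median of 83.5, and that of the wildtype-specific clusters 81.0. Whether the scores of the 2 lists share a scale is not given. A score of at least 100 was reached by 4 of the 37 chained rCGG-specific regions (10.8%, 3.0% to 25.4%), against 11.2% of clustered regions. The interval is wide, and the shares of the whole rCGG-specific list past 100 or over 2000 bp were not counted. Nothing is read from the likeness. In width they differed: the median of the 37 was 806 bp, below the 853 bp of the whole rCGG-specific list. Of the 37, 2 (5.41%, 0.66% to 18.2%) were over 2000 bp, against 11.4% of clustered regions, which that interval also includes. No difference in width is read from these values. Only the chain on chromosome 18 at 21348249-21356926 had a wildtype-specific region within 10 kb.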

How the data were processed

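5hmC was captured from the cerebella of 3 wildtype and 3 rCGG mice by chemical labelling and sequenced from one end for 38 cycles, from fragments of 150 to 300 bp, per the labels' protocols. Bowtie 0.12.9, HOMER and the build mm9 are named in the submitters' processing notes. The authors deposited 1 score per region, with no stated scale, and the peak names are those of MACS. How it was run, against which control and on which pool of animals is not given in the sources used here, so depth per sample is unknown.

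The lists were sorted and chained with Python 3.11.15, numpy 2.4.6, pandas 2.3.3 and scipy 1.17.1, and the chaining was tested on simulated data. Regions with gaps under 10000 bp were joined, and distances are edge to edge. No test was made, since every measure comes from the contrast that chose the members, and the members were chosen with earlier results of these data known. Named clusters are the 10 with most regions, the 10 with the best score, the 5 widest spans and the 5 most covered, 23 in all, with ties broken by best score and then position, and the chains treated apart. Others, such as those nearest the rCGG-specific list or left by a score threshold, were named after their values were seen. Alternatives changed the gap, the chain size, the score minimum and the chains kept. Gene lists and sequence content, planned in case mm9 was at hand, are not analysed here.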

Additional observations from a re-analysis of the deposited data

How the results depend on the processing

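Since single animals have no values here, no result could be checked across mice, and unknown depth limits the size of either list. No paired analysis was possible because each list is 1 result for the whole genotype contrast. The share of 3-region clusters with the best score in the middle stayed within its interval, from 27.6% to 33.3%, under the 5 alternatives that change those clusters. Keeping the 2 chains treated apart moved no result outside its interval. Ending chains at rCGG-specific regions could change nothing, since none lay inside a cluster. The other alternatives change who is a member by their construction. With a gap under 5000 bp the clustered share was 2.11% and chromosome 7 held 9.84% of clustered regions (13.5% in the report's setting), so its lead depends on the threshold. With a gap under 20000 bp the share was 12.1%. With chains of 4 or more the share was 1.03%, the median score 66.1, the median width 784 bp, the chromosome 7 part 10.1% and the share of clusters with an rCGG-specific region within 10 kb 0% of 20. With chains of 2 or more the share was 22.1%, the median width 800.5 bp and the chromosome 7 part 10.3%. With scores of at least 75 only 9 regions in 3 clusters were left, 0.416% of 2161, with a median score of 102.9, a median width of 1221 bp, 0% near an rCGG-specific region and 0% on chromosome 7. Merging regions closer than 1000 bp first, chosen after seeing the data, gave a share of 3.82%. Counting rCGG-specific regions inside the span gave 0% of clusters and within 100 kb 28.1%.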
